A study of Mus musculus with 18 samples.

Results

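In mouse embryonic stem cells (mESCs) without functional Nsd1, 96 of the 20703 genes in the expression table (0.464%) were lower than in wild-type cells at all 3 time points measured. They were chosen by the WT minus KO differences themselves. A gene was selected where the mean of the WT libraries exceeded that of the KO libraries by at least 0.4 on the log2 scale at day 0, day 2 and day 4, and where the highest KO library lay below the lowest WT library at each of those days. Of 99 genes past these thresholds, Nsd1, Dusp9 and Nfatc2 were left out by name. Pecam1, also named for leaving out, failed the thresholds, with differences of 1.79, -0.27 and -0.75. Because the KO and WT values chose the genes, the differences of the 96 between KO and WT are given as a description, with no test. By the mirrored thresholds, 343 genes were higher in KO at all days.

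The libraries are polyA RNA-seq of mouse E14 mESCs, either WT or from 1 of 2 single-cell clones, KO-1 and KO-2, in which Cas9 had removed exon 5 of Nsd1. The clones are pooled as KO unless named. Cells were collected at day 0, when they grew with the cytokine LIF on mouse embryonic fibroblast (MEF) feeders, and at day 2 and day 4 after both had been removed to let them differentiate. Each line and day has 2 biological replicates, so that each day compares 2 WT with 4 KO libraries, 18 in all. Both clones descend from E14 cells that carry a 3xFlag tag and a neomycin resistance cassette behind Nsd1 on both alleles, and the methods do not say whether the WT libraries came from the tagged or the untagged cells. Tag and clonal history therefore cannot be told apart from the loss of Nsd1 by these groups. The p-values below reflect the spread between the libraries of a group, estimated over all groups of a fit. Where the groups are genotype and day, those of KO hold both clones, so this spread includes the difference between the clones. The labels name no second WT line, so the spread between WT lines was not measured.

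Nsd1 is a methyltransferase that mono- and dimethylates lysine 36 of histone H3 (H3K36me1 and H3K36me2), mostly over intergenic regions and gene bodies. This mark limits the spread of H3K27me3, the repressive mark of the Polycomb repressive complex PRC2, and helps to recruit DNA methylation. When LIF is withdrawn, mESCs leave the naive pluripotent state, pass through an epithelial epiblast-like state and start to form the germ layers.

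The deposited values are log2 values after a variance stabilizing transformation (VST), in which differences between weakly expressed genes are compressed. Inverting it gave counts per library divided by its size factor, called normalized counts here. Most low counts were even numbers, 74.89% of those from 1 to 20. A printed count is therefore not to be read as a number of fragments. A factor common to all libraries would leave the ratios between them as they are, but would affect the spread that limma-voom, a fit to the inverted counts, works from, and this was not tested. The values are comparable between libraries but not between genes of different length, so levels of different genes are compared per kb of exon. The total count per library ranged from 9309874 to 23921193, and the 2 WT libraries of day 2 had the lowest totals, 9309874 and 9356867. KO values are listed with the 2 replicates of KO-1 before the 2 of KO-2.

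The targeted gene, Nsd1, had 3374 and 3660 normalized counts in the day 0 WT libraries, against 836.7, 710.5, 689.4 and 634.9 in KO. Its day 2 values were 2773 and 3344 in WT and 854.2, 927.0, 964.3 and 1024 in KO. By day 4 it stood at 2425 and 2111 in WT and at 1103, 910.1, 575.4 and 684.0 in KO. Transcripts of the gene thus remained in the KO libraries at a lower level, and every KO library lay below both WT libraries of its day.

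Across the 96 genes, the WT minus KO difference had a median of 0.54 on day 0, 0.66 on day 2 and 0.68 on day 4, where that of all genes in the table was 0.003, 0.016 and 0.000. In normalized counts, the level left in KO had a median of 35.5%, 26.0% and 30.3% of WT. At day 0, 28 of the genes stood below 25% of the WT level, and this held for 46 at day 2 and 42 at day 4. The largest of a gene's 3 differences fell on day 0 for 20 genes, on day 2 for 35 and on day 4 for 41. In 59 of the 96, all 12 KO libraries lay below all 6 WT libraries with the days not matched. The rule had already set KO below WT within each day, which favours this. How many of all genes were so separated was not counted, so the number is a description.

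For genes outside the 96, and for time and clones, calls came from limma on the VST values, fitted over all genes with an adjusted p under 0.01 and a log2 difference over 0.58. Over the days it called 0.879%, 2.37% and 3.91% of all genes lower in KO, and 1.73%, 4.01% and 3.67% higher. The 96 were chosen by this contrast, and no calls of theirs in it are counted.

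The genes nearest to the threshold were Ift122, with a smallest difference of 0.4001 at day 4, Lrrc8b with 0.4002 at day 0 and Tma7 with 0.407 at day 0. Just outside lay Galm with 0.3993 at day 4, Nectin2 with 0.3983 at day 0 and Tpi1 with 0.3972 at day 0. Nectin2 is an adhesion receptor of adherens junctions and Tpi1 a glycolytic enzyme, so that genes akin to members stand on the other side of the line.

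**Figure D1:**
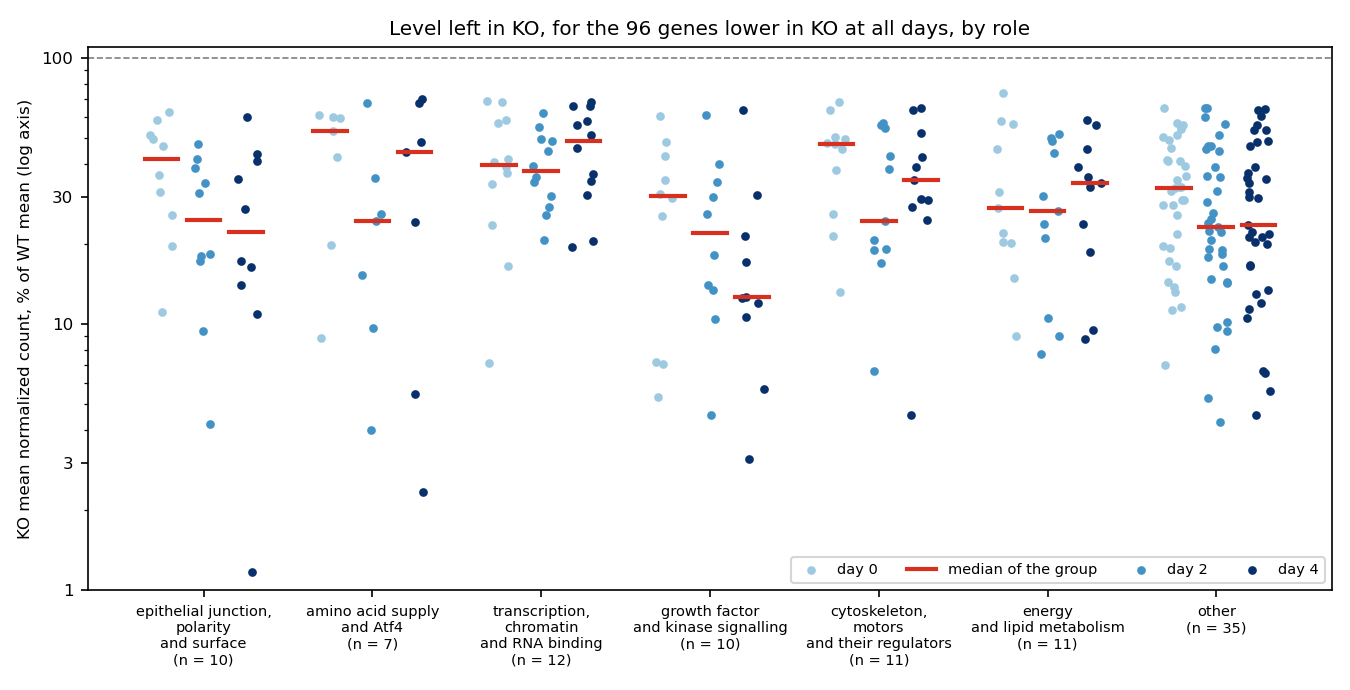
KO mean normalized count as a percent of the WT mean (log axis) for each of the 96 genes at day 0, 2 and 4, grouped by role. Each point is 1 gene, red bars are medians of the group, and the dashed line marks 100%. In the epithelial group the median went from 41.6% to 24.7% and 22.2%, and in the signalling group from 30.4% to 22.1% and 12.6%.

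The genes were sorted into 6 roles by hand, after their values were known, and 35 stayed outside these. The roles order the account and carry no test.

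Epithelial junction, polarity and surface genes made up 10 of the 96 and held the largest differences of day 2 (Cldn6, 1.90) and day 4 (Krt19, 3.83). Krt19, a keratin of simple epithelia, had 338.8 and 296.4 normalized counts in WT libraries of day 0, against 28.9, 32.7, 28.4 and 50.5 in KO. At day 2 its WT libraries were at 208.6 and 178.3 and those of KO at 21.5, 26.4, 56.2 and 37.9. At day 4 it had 7109 and 6967 in WT and 83.4, 97.4, 79.8 and 70.2 in KO. KO thus held 11.1% of the WT level at day 0, 18.4% at day 2 and 1.18% at day 4, the lowest share of any member at any day, and the groups were far apart throughout.

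Dsp encodes desmoplakin, which ties desmosomes to the keratin filaments. The day 0 libraries had 1182 and 1177 normalized counts in WT, against 261.8, 263.6, 379.7 and 310.4 in KO. At day 4 the WT libraries reached 12590 and 11030, and those of KO 2085, 1920, 1226 and 1394. Dsp came up in KO as well, but the KO mean of day 4 was 14.02% of that of WT, after 25.8% at day 0 and 34.0% at day 2.

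Cldn6, a claudin of tight junctions in early embryonic epithelia, was at 868.0 and 854.6 normalized counts in WT and at 321.2, 450.2, 449.8 and 488.1 in KO at day 0. At day 2 WT had 3965 and 3692, KO-1 916.6 and 864.0, and KO-2 465.8 and 394.1. The clones differed from each other here, and both lay far below WT, with 17.24% of its level left in KO.

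Ap1m2 encodes the medium subunit of the epithelial form of the AP-1 clathrin adaptor, which sorts proteins to the basolateral membrane. At day 0 its libraries had 234.0 and 247.4 normalized counts in WT against 32.1, 48.3, 56.8 and 52.4 in KO. At day 2 they had 935.3 and 893.1 in WT, and 78.0, 30.5, 18.7 and 27.4 in KO. Its KO share over the days was 19.7%, 4.23% and 10.9%. Crb3, the small Crumbs protein of the apical membrane, had a like course, with 31.4%, 9.44% and 16.4%.

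Spint2, an inhibitor of serine proteases at the cell surface, and Epcam, the epithelial cell adhesion molecule, kept more of their level. Epcam counted 2804 and 2604 in WT at day 0, as normalized counts, against 1569, 1856, 1748 and 1618 in KO, and its KO share was 62.8%, 38.5% and 60.0% over the days. For Spint2 the shares were 58.2%, 31.1% and 41.0%. Pls1, an actin bundling protein of microvilli, was at 36.3% at day 0 and 17.3% at day 4, Ripk4, a kinase needed for epidermal differentiation, at 46.8% and 35.3%, and Pard6b, a scaffold of the PAR polarity complex, at 51.6% and 43.7%. In none of the 10 was the difference largest at day 0. It was largest at day 2 in 6 of them and at day 4 in 4.

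**Figure D2:**
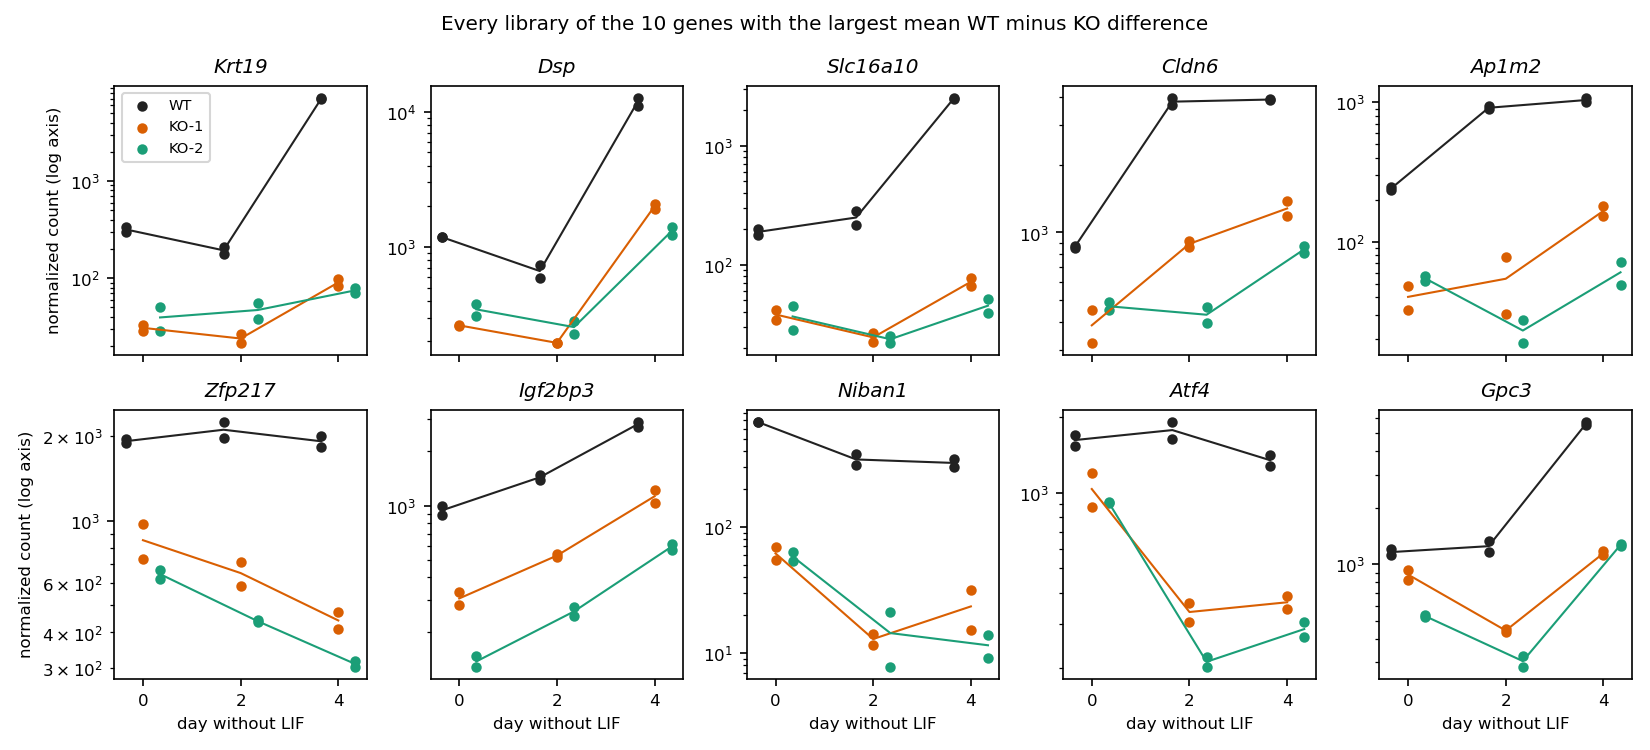
Normalized count (log axis) in every library of the 10 genes with the largest mean WT minus KO difference, by day without LIF. Points are libraries, shifted sideways by line, and lines join the means of WT, KO-1 and KO-2. WT lies above both clones at every day, and the WT libraries of Krt19 reach 7109 and 6967 at day 4.

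Promoter sequences of 300 bases, from 250 before to 50 after the start site, were taken from RefSeq on GRCm38.p6 and matched 77 of the 96 genes, 28 of them with more than 1 start site. They come from another build than mm39, on which the reads were counted. The 3 shown belong to epithelial members. In each, capitals mark the letters CACCTG or, where they lie on the other strand, CAGGTG. This is an E-box form bound by the Snail and Zeb repressors of epithelial genes. The letters were added to the search after the members were known, and these promoters were picked for their number of matches, with 4 in Ap1m2, 3 in Spint2 and 4 in Crb3.
Ap1m2, GRCm38.p6 chr9:21312284-21312583, minus strand: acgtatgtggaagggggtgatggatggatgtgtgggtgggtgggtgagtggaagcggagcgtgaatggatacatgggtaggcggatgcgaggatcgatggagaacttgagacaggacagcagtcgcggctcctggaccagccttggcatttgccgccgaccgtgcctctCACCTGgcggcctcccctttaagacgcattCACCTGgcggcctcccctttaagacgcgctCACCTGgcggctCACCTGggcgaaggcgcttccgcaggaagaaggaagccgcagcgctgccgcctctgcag
Spint2, GRCm38.p6 chr7:29281928-29282227, minus strand: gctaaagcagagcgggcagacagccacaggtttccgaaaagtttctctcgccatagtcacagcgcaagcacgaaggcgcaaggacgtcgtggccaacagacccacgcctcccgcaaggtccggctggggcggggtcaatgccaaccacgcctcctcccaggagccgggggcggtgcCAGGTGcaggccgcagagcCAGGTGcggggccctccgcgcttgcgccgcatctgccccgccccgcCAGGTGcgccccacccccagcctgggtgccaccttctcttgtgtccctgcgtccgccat
Crb3, GRCm38.p6 chr17:57061951-57062250, plus strand: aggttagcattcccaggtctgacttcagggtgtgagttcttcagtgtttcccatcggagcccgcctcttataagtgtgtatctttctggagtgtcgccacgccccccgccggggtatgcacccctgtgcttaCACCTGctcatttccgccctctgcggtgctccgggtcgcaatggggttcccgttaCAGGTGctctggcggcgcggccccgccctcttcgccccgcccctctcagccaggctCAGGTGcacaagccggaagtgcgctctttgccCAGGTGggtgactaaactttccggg

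CACCTG was found on either strand in 31 of the 77 genes (40.3%), where 22.5% of the 13448 genes of the table with a promoter hold it. Since members had more promoters per gene, the share per promoter was closer, with 33 of 119 (27.7%) against 19.6% of 17008. All 8 epithelial members with a promoter sequence were among the 31 genes. In all, 11 motifs were searched on both strands, and this one stood farthest from its share among all genes in percentage points. Of the 7 planned ones, GGGCGG was, per gene, in 75.3% of members against 63.1% of genes (per promoter 63.0% against 57.0%). CCAAT was in 42.9% against 42.8% (per promoter 30.3% against 37.7%). CACGTG was in 15.6% against 10.98% (per promoter 10.9% against 9.34%) and TGACGTCA in 5.19% against 3.19% (per promoter 3.36% against 2.69%). The shares per gene were 7.79% against 9.96% for TATAAA, 7.79% against 12.4% for AGGCCT and 1.30% against 1.75% for ATGCAAAT. The other 3 that were added were in 2.60% against 3.23% for CTTTGAT, in 0 against 0.60% for TGATGNAAT and in 0 against 0.35% for AACCNGGTT. A match is a stretch of letters and not a binding site, no test was run, and with 11 motifs tried and 4 of them chosen afterwards the highest share is a description. The median number of CG pairs was 17 per member promoter and 18 per promoter of the table.

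Genes of amino acid supply and the Atf4 response made up 7 of the 96, and in 4 of these the difference was largest at day 2. Atf4 encodes the transcription factor that is translated under amino acid and endoplasmic reticulum stress and turns on amino acid transporters, synthetic enzymes and tRNA synthetases. In WT it had 1709 and 1541 normalized counts at day 0, against 876.9, 1196, 909.4 and 917.2 in KO. At day 2 it had 1920 and 1643 in WT against 364.7, 304.9, 221.6 and 202.3 in KO, which is 15.3% of the WT level, after 60.0% at day 0 and before 24.1% at day 4.

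Pck2, the mitochondrial phosphoenolpyruvate carboxykinase, Slc7a1, a transporter of cationic amino acids, and Nars, an asparaginyl-tRNA synthetase, were likewise lowest against WT at day 2. Their KO shares at day 2 were 24.5%, 26.0% and 35.5%, and at day 0 42.6%, 53.1% and 59.3%. At day 2, Nars had 7561 and 7564 normalized counts in WT against 2614, 2658, 2698 and 2766 in KO, a spread among the KO libraries that is small beside the gap. Shmt2, the mitochondrial serine hydroxymethyltransferase, stayed between 61.3% and 67.7% of WT at all days.

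Slc16a10, a transporter of aromatic amino acids, had another course. At day 0 it was at 199.6 and 177.0 normalized counts in WT against 41.8, 34.4, 28.4 and 44.9 in KO. At day 4 the WT libraries had 2500 and 2483, and those of KO 76.7, 66.7, 39.2 and 51.1. The KO share went from 19.8% to 9.65% and 2.34%, and the KO libraries of day 4 were below the WT libraries of day 0. Niban1, a stress-induced protein, had the largest difference of any member at day 0 (1.31) and kept 8.91%, 4.01% and 5.46% of WT.

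Of the other 24 genes on a list of one-carbon and amino acid genes, limma called 8 lower in KO at day 2 and 1 at day 4, and 1, 1 and 4 higher over the days. At day 0 it called 0 lower, where 11 had an unadjusted p under 0.05 and limma-voom, which called 6.86% of all genes lower at day 0, called 6. The 8 of day 2 included Psat1 (-1.57) and Phgdh (-0.98) of serine synthesis, Mthfd2 (-0.97) of the mitochondrial folate cycle, and Chac1 (-1.06) and Trib3 (-0.85), known targets of Atf4. At day 4 the differences of Psat1 and Phgdh were 0.02 and 0.08. The list's median KO minus WT difference was -0.08, -0.30 and 0.04.

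Regulators of transcription, chromatin and RNA formed a group of 12. Zfp217, a zinc finger protein found in corepressor complexes, had 1895 and 1949 normalized counts at day 0 in WT against 974.8, 731.0, 621.0 and 670.4 in KO. The WT level was about the same at day 4, with 2009 and 1832, while KO had 471.3, 411.5, 301.7 and 315.6, and the KO share went from 39.0% to 25.8% and 19.5%. Bcor, which belongs to a variant Polycomb complex PRC1, went the same way from 58.5% to 35.7% and 20.6%. Of the other 19 genes on a list of PRC1 and Bcor complex subunits, limma called 0 lower at any day, with 3, 4 and 4 lower at an unadjusted p under 0.05 and 2 called at day 4 by limma-voom, which called 13.0% of all genes lower at that day and 13.6% at day 2. limma called 1, 2 and 4 higher, with 6, 4 and 7 higher at an unadjusted p under 0.05. By limma-voom 3, 2 and 7 were higher, where it called 6.43%, 10.3% and 10.9% of all genes.

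Kdm6b encodes a demethylase of H3K27me3. Its libraries of day 0 had 1910 and 2158 normalized counts in WT and 1103, 916.8, 716.0 and 671.3 in KO at day 0, and its KO share was 41.9%, 48.7% and 55.9%. For this gene, the gap was widest before differentiation. Irf2bpl, a nuclear protein with a RING finger, shared that order, with 37.0%, 44.8% and 57.9% of WT.

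Lef1, a transcription factor of the Wnt pathway, was at 158.5 and 148.2 normalized counts in WT and 14.5, 21.3, 5.32 and 2.81 in KO at day 0. By day 4 it had 1078 and 1022 in WT and 438.6, 407.6, 367.5 and 331.1 in KO, so the share left went from 7.15% to 36.8% while the WT minus KO difference on the VST scale moved only between 0.72 and 0.83. Sox11, a SoxC factor of neural and mesenchymal progenitors, had 33.7%, 34.2% and 51.3% of WT. Igf2bp3, an oncofetal RNA-binding protein, had 889.0 and 992.7 in WT against 330.8 and 281.6 in KO-1 and 146.4 and 128.1 in KO-2 at day 0.

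Among the 26 other genes on a list of the Wnt pathway, limma called 1, 3 and 9 lower and 2, 3 and 4 higher over the days. limma-voom called 3, 10 and 13 lower and 3, 6 and 5 higher. Those lower by limma included Tcf7 (-0.84 at day 2 and -0.96 at day 4), a factor of the same family as Lef1. They also included the ligands Wnt5a (-2.49) and Wnt6 (-2.21) at day 4, while Tcf7l1, another family member, was higher at day 4 (0.76). Tead2, the partner of Yap in the Hippo pathway, kept 68.3%, 62.0% and 68.1%, and of the 13 others on that list 6 were called lower at day 4 and 3 higher at each of the days before. Etv4, a target of FGF and ERK signalling, kept 57.0%, 49.5% and 45.9%, and of the 22 others on that list, with Dusp9 also left out, 3 were called lower at day 2 and 6 at day 4, and 3 higher at each day. Dusp9, an ERK phosphatase, passed the thresholds of the members with WT minus KO differences of 1.84, 2.25 and 1.35. The ETS factor Etv1, of the same subfamily, was higher in KO at each day (1.06, 0.86 and 1.09), while Etv5, the other one, had -0.14, -0.45 and -0.04 and was not called.

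In the group of 10 growth factor and kinase signalling genes, the difference was largest at day 4 in 8. Gpc3, a glypican that modulates Wnt and Hedgehog signals, had 1117 and 1200 normalized counts in WT libraries at day 0 against 934.7, 823.5, 533.2 and 522.7 in KO. At day 4 it had 5727 and 5527 in WT against 1116, 1168, 1274 and 1256 in KO. The share left was 60.7%, 29.9% and 21.4%. Tgfa, a ligand of the EGF receptor, Rnf43, a ubiquitin ligase that removes Wnt receptors, and Ubash3b, a phosphatase of receptor signalling, were close to absent in KO at day 0, with 7.10%, 5.30% and 7.20% of WT. The normalized counts of Rnf43 at day 0 were 57.0 and 51.8 in WT against 3.21, 6.55, 1.77 and 0 in KO.

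Pdgfrb, the PDGF receptor of mesenchymal cells, is on the list of feeder markers. It had 539.3 and 506.4 normalized counts at day 0 in WT against 205.6, 152.3, 200.5 and 170.2 in KO, and 441.8 and 471.7 against 18.04, 16.7, 18.2 and 51.1 at day 4. Over all 12 feeder markers, of which 10 had a mean of at least 10 normalized counts, the summed normalized count at day 0 was 4083 and 3959 in WT and 5727, 5687, 6528 and 6737 in KO, the other way round. It was 3762 and 3555 in WT and 2677, 2657, 3907 and 3791 in KO at day 4, when no feeders had been added. The most abundant of them was Col1a1, Lum was at 0 in all 6 libraries of day 0, and Dcn had at most 10.7 there. Of the 11 feeder markers besides Pdgfrb, 1 was called lower at day 2 and 1 at day 4, and 3 were called higher at day 0 and 2 at day 4. The feeder markers are also expressed by mesoderm, and their part in the result for Pdgfrb was not tested. In such bulk libraries, fewer cells of a type and less RNA per cell cannot be told apart.

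Cytoskeletal proteins, motors and their regulators made up 11 genes. Kif1a, a kinesin that carries vesicles along axons, had 431.9 and 412.9 normalized counts in WT against 168.6, 234.1, 237.8 and 213.2 in KO at day 0. At day 2 it had 4238 and 4815 in WT against 943.9, 1026, 740.4 and 718.6 in KO. At day 4 it was at 3366 and 3256 in WT and 2451, 2439, 1803 and 1921 in KO. The share left was thus 50.5%, 18.9% and 65.0%, with the widest gap in the middle of the course.

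Tmsb10 binds monomeric actin. It had 6344 and 7078 normalized counts in WT against 3318, 4855, 5153 and 5084 in KO at day 0, and 8622 and 7738 against 1885, 2413, 3697 and 3391 at day 4. The share left went from 68.6% to 34.8%. The clones came apart at day 4, by a limma call that was lost when single libraries were left out. Ablim1, an actin-binding LIM protein, was at 13.2%, 6.68% and 4.57% of WT, and Capg, which caps actin filaments, at 38.0%, 20.8% and 29.6%. Flnc, the muscle filamin, was at 63.6%, 57.2% and 63.8%.

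Of the other 24 genes on a list of the actin cytoskeleton and intermediate filaments, on which Krt19 stands, 3 were called lower at day 2 and 13 at day 4, and 4, 3 and 1 higher over the days. Krt8 and Krt18, which pair in the filaments of simple epithelia, had KO minus WT differences of -0.33 and -0.27 at day 0, which were not called, and of -1.35 and -1.53 at day 2 and -2.64 and -1.91 at day 4. On the list of adhesion and junction genes, with Epcam, Cldn6, Dsp and also Pecam1 left out, 5 of 23 were called lower at day 2 and 8 at day 4, and 4, 4 and 3 higher over the days. Cdh1, the E-cadherin gene, had -0.05, -0.70 and -0.62, Cldn7 -0.31, -1.42 and -1.28, and Cdh2, the N-cadherin gene, 1.53, 1.53 and -0.76. At day 0, limma called 1 gene lower among all 185 entries of the 9 lists that hold a member, with the members, Dusp9 and Pecam1 left out, where 47 were lower at an unadjusted p under 0.05 and limma-voom called 12. The share at day 0, 0.541%, is near the 0.879% of all genes. By limma 25 were lower at day 2 and 47 at day 4, or 13.5% and 25.4% against 2.37% and 3.91% of all genes. It called 22, 24 and 23 higher over the days, or 11.9%, 13.0% and 12.4% against 1.73%, 4.01% and 3.67%. The shares of limma-voom were closer to those of all genes, with 21.6% and 37.3% lower at day 2 and day 4 against 13.6% and 13%. It called 17.8%, 17.8% and 17.3% higher over the days, against 6.43%, 10.3% and 10.9% of all genes. Nothing particular to the lists was tested. All 9 lists were chosen with earlier results of these data known.

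Enzymes and carriers of energy and lipid metabolism counted 11. Ldha, the muscle-type lactate dehydrogenase, was the most abundant member per kb of exon, with a mean level over the days of 11820 normalized counts per kb in WT and 7031 in KO. At day 0 its libraries had 32980 and 35170 normalized counts in WT against 24420, 25160, 25720 and 25810 in KO, and 51140 and 49550 against 26480, 25250, 24960 and 24480 at day 2. The share left was 74.2%, the highest of any member at day 0, then 50.2% and 58.5%. Of the 23 other genes on a list of glycolysis and hypoxia, 2 were called lower at day 2 and 3 at day 4, and 1, 5 and 2 higher over the days. Pctp, a phosphatidylcholine transfer protein, was between 9.0% and 9.53% of WT at all days.

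Acad10 and Acad12, 2 acyl-CoA dehydrogenases, are neighbours on chromosome 5, 2.09 kb apart. Acad10 had 20.1%, 21.1% and 32.6% of WT and Acad12 20.4%, 23.7% and 23.9%. Hebp1, a heme-binding protein, and Fam234b, a membrane protein, overlap on opposite strands of chromosome 6. They had 16.5%, 16.5% and 16.7% for Hebp1 and 14.3%, 10.2% and 20.3% for Fam234b. The library kit does not mark strand, so reads from the stretch that both cover cannot be told apart. In the annotation used here, that stretch lies at the start of both genes. It is very short beside their exons, which cover 3.711 kb in Hebp1 and 6.912 kb in Fam234b. The part of such reads in these shares was not tested. No other members lay next to each other in the order of the table's genes.

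The nearest genes on either side that are not members numbered 188. limma called 5, 5 and 14 of them lower in KO over the days, or 2.66%, 2.66% and 7.45%, where it called 0.879%, 2.37% and 3.91% of all genes. It called 1, 2 and 4 higher, or 0.532%, 1.06% and 2.13%, against 1.73%, 4.01% and 3.67% of all genes, and none of them passed the thresholds by which the members were chosen. Some genes called at a day overlap a member. Ndufa4l2, on the other strand from Shmt2, had a difference of -0.60 at day 0. Dusp1, on the other strand from Ergic1, had -1.46 at day 4. Fgfr2, on the other strand from Lhpp, was higher in KO by 0.91, 1.32 and 0.88. For the 64 members that share a symbol stem with others in a family of limited size, such as Kif1a and Kif21b or Acad10 and Acad12, 2, 14 and 31 of 513 other genes were called lower (0.39%, 2.73% and 6.04%) and 16, 34 and 39 higher (3.12%, 6.63% and 7.60%). Neither set was tested against the table. Large families, such as those of Slc and Tmem symbols, were not counted.

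All 96 genes are protein coding, as are 77.6% of the genes found in the annotation. Their normalized count per kb of exon in WT, as a mean of the days, had a median of 133.9, against 53.2 for all protein-coding genes of the table. In KO the medians were 40.4 and 54.5. After Ldha, the highest levels per kb in WT were those of Tmsb10 with 5412, Cldn6 with 1666, Nars with 1531 and Epcam with 1426, and the lowest was that of Rnf43 with 9.80. The high level is tied to the choice, since the VST scale leaves little room for a difference of 0.4 in weakly expressed genes. Ldha, Tmsb10, Tma7, Sub1 and Sec61g are known to have processed pseudogenes, and how reads were divided between the copies was not tested.

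**Figure D3:**
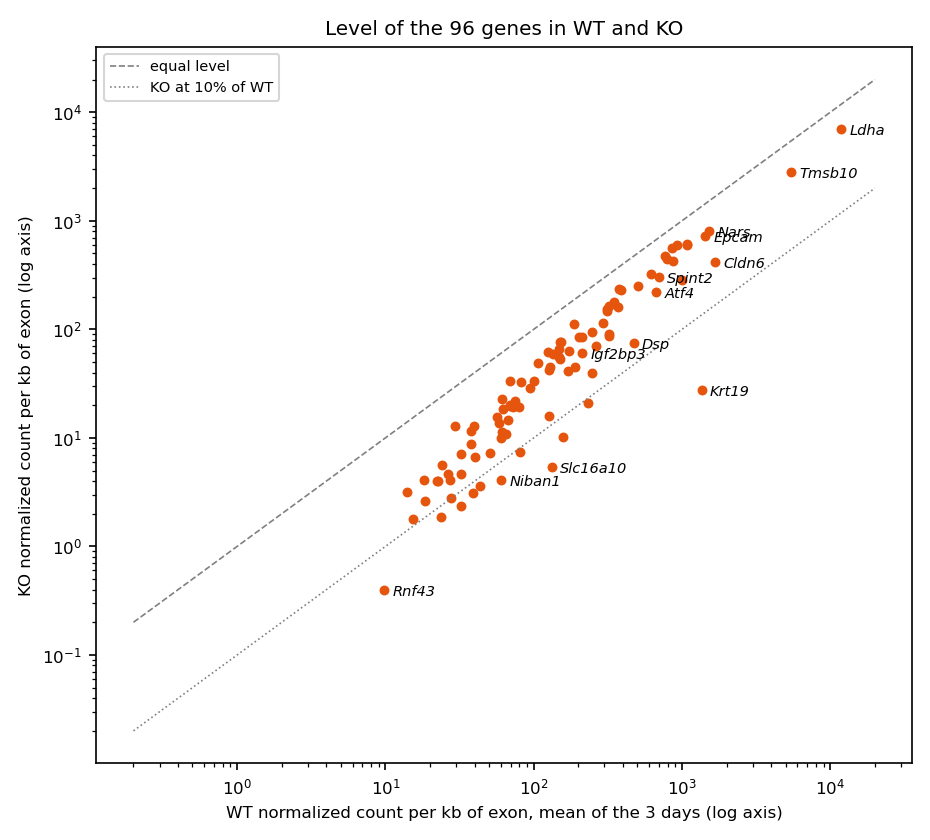
Mean normalized count per kb of exon over the 3 days in WT and in KO (both log axes) for the 96 genes, with each point a gene. The dashed line marks equal levels and the dotted line KO at 10% of WT. Ldha stands highest, at 11820 and 7031, and Krt19, Slc16a10, Niban1 and Rnf43 are among those below the dotted line.

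The rule did not compare days, and change over time within a genotype was tested in the same limma fit. The tests use the same WT and KO values as the rule. The 96 were also more highly expressed in WT than the protein-coding genes of the table, with medians of 133.9 and 53.2 per kb. Their shares are therefore set beside those of all genes only as a description. From day 0 to day 2 in WT, 12 of the 96 rose, where 2.66% of all genes did, and 9 fell, where 4.02% did. With limma-voom 22 rose, against 9.5% of all genes, and 15 fell, against 10%. From day 2 to day 4 in WT, 15 rose against 5.69% of all genes and 4 fell against 3.07%, and limma-voom gave 27 against 12.2% and 6 against 11.9%. By limma 36 members changed at one or both steps in WT, where 13.5% of all genes did, and 19 in KO, where 4.28% did. The median member changed by 0.05 and 0.16 at the 2 steps, and the median gene of the table by 0.01 and -0.02.

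In WT, Kif1a rose the most from day 0 to day 2, by 2.41 ± 0.11 (SE; limma adjusted p = 1.77e-12), followed by Cldn6 with 1.63 ± 0.18 (adjusted p = 4.34e-07) and Sox11 with 1.30 ± 0.12 (adjusted p = 4.93e-08). Ap1m2 rose by 0.99, Flnc by 0.93, Capg by 0.77, Rab15, an endosomal GTPase, by 0.75 and Tbc1d5, a regulator of endosomal sorting, by 0.70. The 9 that fell were led by Acsf2 (-0.90), an acyl-CoA synthetase, Pdgfrb (-0.86), Padi2 (-0.81), a peptidylarginine deiminase, Shmt2 (-0.75) and Slc7a1 (-0.75). The overlapping Hebp1 and Fam234b fell by 0.70 and 0.67.

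From day 2 to day 4 in WT, 2 of the 10 epithelial members rose and 1 fell. Krt19 rose by 3.47 ± 0.07 (SE; limma adjusted p = 6.25e-19) and Dsp by 3.34 ± 0.14 (adjusted p = 6.65e-14), ahead of Slc16a10 with 2.03 ± 0.06 (adjusted p = 8.28e-16) and Gpc3 with 1.77 ± 0.13 (adjusted p = 7.38e-10). Flnc, Susd4, Ablim1, Trim56 and Pdgfrb also rose, by between 0.76 and 1.12. The 4 that fell were Pck2 (-0.92), Nars (-0.82), Epcam (-0.64) and Ldha (-0.60), and the last was not called without WT day 4 replicate 2 (-0.57).

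In KO, 5 members rose from day 0 to day 2, where 1.43% of all genes did, and 9 fell, where 1.77% did. limma-voom called 11 higher, against 7.14% of all genes, and 24 lower, against 9.2%. Of the 9, 5 belonged to the amino acid group: Slc7a1 fell by 1.17 ± 0.09 (SE; limma adjusted p = 1.71e-09), Atf4 by 0.98 ± 0.08 (adjusted p = 3.65e-09), Nars by 0.77, Pck2 by 0.66 and Shmt2 by 0.59, the last not called without any 1 of 3 KO libraries (KO-1 day 0 replicate 2, KO-1 day 2 replicate 2 or KO-2 day 2 replicate 2, with -0.56 each). In WT, the differences at this step were 0.10 for Atf4, -0.14 for Nars and -0.32 for Pck2, none of them called, whereas Slc7a1 and Shmt2 fell in WT as well, by 0.75 each. Whether the change of a gene differed between WT and KO was not tested, since the choice of the genes uses the differences from which such a test is made.

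Between day 2 and day 4 in KO, 8 members rose, where 0.923% of all genes did, and limma-voom called 32 higher, against 5.59% of all genes. Among the 8 were Dsp, which rose by 1.61 ± 0.10 (SE; limma adjusted p = 1.74e-10), Flnc by 1.17, Gpc3 by 0.99, Farp1, a guanine nucleotide exchange factor, by 0.98, Kif1a by 0.94, Lef1 by 0.76 and Igf2bp3 by 0.62. Igf2bp3 was not called without any 1 of 4 libraries (KO-2 day 2 replicate 1 or 2, or KO-1 day 4 replicate 1 or 2), with 0.50 to 0.55. By limma 0 members fell at this step, where 0.565% of all genes did. At an unadjusted p under 0.05 there were 13 lower, and limma-voom on the inverted counts called 2, where it called 4.75% of all genes lower.

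Krt19, with a KO change of 0.25 from day 0 to day 4, and Slc16a10, with 0.12, had risen by 3.18 and 2.18 in WT over the same days. At the other end, Kif1a had 2.03 in WT and 1.94 in KO, Flnc 2.05 and 1.89, Lef1 1.35 and 1.25, and Sox11 1.32 and 1.31, so that on the VST scale these members had similar values in both. In normalized counts they did not all keep their share, since that of Lef1 went from 7.15% to 36.8% of WT and that of Sox11 from 33.7% to 51.3%. Acsf2, Pck2, Shmt2, Nars and Slc7a1 had negative differences in both, between -0.94 and -1.23 in WT and between -0.70 and -1.14 in KO. From day 0 to day 4, 62 of the 96 had a positive difference in WT and 54 in KO, with 8 positive in WT and negative in KO and 0 the reverse. The median member had 0.26 in WT and 0.03 in KO, and the median gene of the table -0.01 in both. How many of all genes had each sign was not counted. The WT and KO values of both days chose the members, so these counts are a description.

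**Figure D4:**
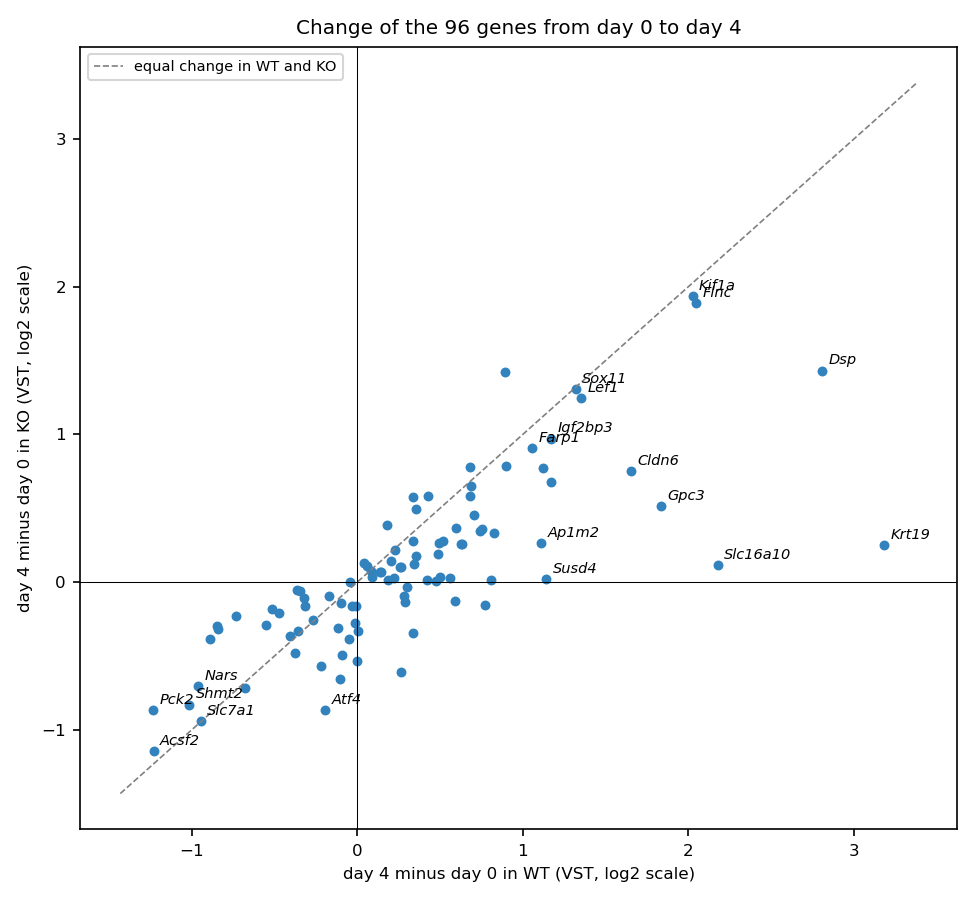
Day 4 minus day 0 difference on the VST log2 scale in WT (horizontal axis) and KO (vertical axis) for the 96 genes, each point a gene. The dashed line marks an equal change in both. Krt19 (3.18 in WT, 0.25 in KO), Slc16a10 (2.18 and 0.12) and Dsp (2.81 and 1.43) lie far below the line, and Kif1a, Flnc, Lef1 and Sox11 near it.

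Markers of pluripotency and of the germ layers also differed between these samples. The summed normalized count of 12 pluripotency markers lay between 112600 and 116600 in the 6 libraries of day 0. At day 2 it was 34530 and 30910 in WT against 46760, 43590, 39610 and 38020 in KO, and at day 4 18880 and 19470 against 29460, 31570, 30740 and 29490. The markers did not go one way. At day 0 limma called 0 of the 12, as did limma-voom, with 5 higher and 3 lower in KO at an unadjusted p under 0.05. At day 2 it called 7 higher and 1 lower in KO, and at day 4 10 higher and 1 lower. Esrrb had 96.6 and 99.8 at day 4 in WT against 2182, 2064, 1707 and 1631 in KO, and Sox2 252.6 and 217.2 against 4083, 4208, 4546 and 4337. Pou5f1, which encodes Oct4, had 5468 and 5366 against 3252, 3627, 3755 and 3515, and Tdgf1, a Nodal co-receptor, 8091 and 8556 against 3484, 3714, 3629 and 3741. Both lay lower in every KO library of that day. Of the pair, limma called only Tdgf1, while limma-voom called 2 of the 12 markers lower. Trophoblast markers, of which Krt8 was the most abundant, summed to 38270 and 37060 in WT at day 4 against 5946, 6447, 7749 and 7798 in KO, and primitive streak and mesoderm markers, led by T, to 37760 and 37060 against 2262, 2554, 2003 and 1942. At that day 6 of 10 trophoblast markers were called lower and 1 higher, and 9 of 10 streak and mesoderm markers lower and 0 higher. The trophoblast sum of WT rests mostly on the keratins Krt8, with 26280 and 24930 at day 4, and Krt18, with 9510 and 9638. Tfap2c lay the other way, with 247.5 and 255.1 in WT against 828.8, 955.0, 618.1 and 587.3 in KO. Ascl2 was also higher in every KO library of that day. At day 0 the trophoblast sums were 3036 and 3020 in WT and 3108, 3197, 3883 and 3970 in KO. Other sums differed at day 0 already. Neuroectoderm markers summed to 3281 and 3053 in WT at day 0 against 8340, 7948, 7176 and 7412 in KO. This sum rests on Zic2, Zic5, Tubb3 and Nes, the 4 of 10 called higher at that day, while the list's median difference was 0.06. Otx2 on the same list had 343.0 and 376.9 in WT against 146.1, 135.9, 142.0 and 149.6 in KO and was not called. Later the neuroectoderm sums lay the other way round, with 10500 and 11670 in WT against 7151, 7536, 6698 and 6813 in KO at day 2. They were 10360 and 9565 against 8292, 8268, 6692 and 6755 at day 4. Markers of the 2-cell-like state summed at day 0 to 371.5 and 418.7 in WT against 126.9, 157.2, 148.2 and 166.4 in KO. Of the 6 in the table, limma called 0 at day 0 and limma-voom 4 lower, and 6 were lower at an unadjusted p under 0.05. Primitive endoderm markers, led by Sparc, summed to 17200 and 16950 in WT at day 4 against 5204, 5630, 7020 and 6951 in KO, with 6 of 12 called lower and 0 higher. The part of such differences in cell state in the members' values was not tested.

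The rule took the KO mean over both clones. It also asked every KO library to lie below WT, which limits how high 1 clone can be, so that the difference between the clones is not fully independent of the choice. At day 0, limma called 0 of the 96 different between KO-1 and KO-2, where it called 0.029% of all genes. At an unadjusted p under 0.05 there were 21, and limma-voom called 3 (Gpc3, Bcor and Igf2bp3, all higher in KO-1), where it called 0.159% of all genes. By limma 1 differed at day 2, against 0.0435% of all genes, and 1 at day 4, against 0.251%. limma-voom called 4 and 16 at these days, against 0.232% and 2.23% of all genes.

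The gene of day 2 was Cldn6, which was higher in KO-1 by 0.60 ± 0.07 (SE; limma adjusted p = 1e-04) and was not called without KO-1 day 2 replicate 1 (0.57) or KO-2 day 2 replicate 2 (0.54). The gene of day 4 was Tmsb10, lower in KO-1 by 0.60 ± 0.14 (SE; limma adjusted p = 0.00783). That call was lost without any 1 of 11 libraries (both of WT day 0, WT day 4, KO-2 day 0, KO-2 day 2 and KO-2 day 4, and KO-1 day 4 replicate 1), with differences from -0.46 to -0.65 and adjusted p from 0.0104 to 0.154 in limma. In the fit of only the groups compared, neither was called. Igf2bp3 was higher in KO-1 at each day, by 0.43, 0.48 and 0.57 with limma adjusted p of 0.00119, 0.000248 and 1.95e-05, below the required difference of 0.58 each time, and was called at day 4 without KO-1 day 4 replicate 2 (0.65) or KO-2 day 4 replicate 2 (0.60).

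The median absolute difference between the clones was 0.06, 0.10 and 0.10 over the days. Taken one clone at a time, 4 members at day 0 had a WT minus KO-1 difference under 0.4 and 12 a WT minus KO-2 difference under 0.4. The smallest at day 0 was 0.22 in KO-1, for Bcor.

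**Figure D5:**
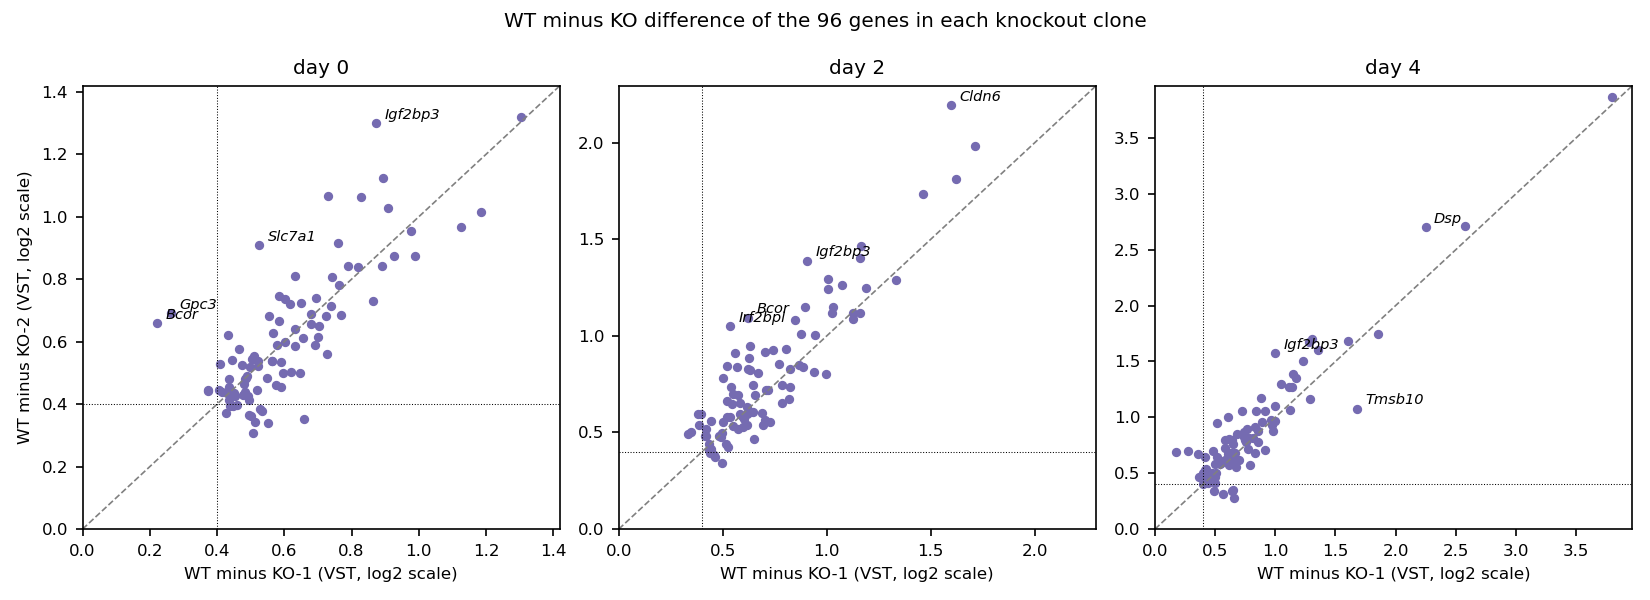
WT minus KO-1 (horizontal axis) and WT minus KO-2 (vertical axis) differences on the VST log2 scale at day 0, 2 and 4 for the 96 genes, each point a gene. The dashed line marks equal differences and the dotted lines 0.4. All 96 genes are above 0 in both clones, and Bcor at day 0, Cldn6 at day 2 and Tmsb10 at day 4 lie farthest from the dashed line.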

How the data were processed

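Per the labels and the methods, polyA RNA of 18 libraries was prepared with a TruSeq v2 kit, which does not mark strand. The authors trimmed reads with Trim Galore 0.6.7, aligned them to mm39 with STAR 2.7.11a, counted them with featureCounts 2.0.6 and deposited the log2 values of DESeq2 1.42.0's variance stabilizing transformation. The strand setting of the counting is not given in the sources used here. Inverting the transformation gave whole counts within 0.05 for 100% of values, and 74.89% of counts from 1 to 20 were even. The cause, and its effect on limma-voom, were not tested.

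limma 3.58.1 (R 4.3.3, trend) was fitted to the deposited values of all 20703 genes, over 6 groups of genotype and day, or 9 of line and day for the clones. Calls needed a Benjamini-Hochberg adjusted p under 0.01 and a log2 difference over 0.58. Tables and figures used Python 3.11.15, numpy 2.4.6, pandas 2.3.3 and matplotlib 3.10.9. The fits were tested on simulated data. Alternatives were limma-voom on the inverted counts, other scalings, centring, filters, thresholds, clones, a replicate block and each library left out.

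The members and gene lists were chosen with earlier results of these data known. Members were named where they had 1 of the 10 largest mean differences, 1 of the 5 highest levels per kb, or 1 of the 4 largest rises or falls in WT, differed between clones, stood on a list or at the threshold, or were neighbours or shared a stem. All other members named, and genes named from lists and overlaps, were chosen after their values were seen, as were the roles, 4 motifs and the count of motifs per gene. Some members are counted but not reported here by name. GENCODE M21 gave exon lengths and gene order, and no coordinates of it are printed. No replicate number pairs samples: over 36 pairs of groups, the correlation of replicate differences ranged from -0.61 to 0.64 (mean -0.048, 10351 genes).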

Additional observations from a re-analysis of the deposited data

Results flagged for a closer look

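In the 4 KO libraries of a day, 4 of the 96 gene and day groups of the 32 named members held a library far from the other 3, by the gap to its nearest neighbour as a share of the whole range on the VST scale. Chance gives about 1 in 20 groups.

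Atf4 at day 0 had 1196 normalized counts in KO-1 replicate 2 against 876.9 to 917.2 in the others (0.86). Tmsb10 at day 0 had 3318 in KO-1 replicate 1 against 4855 to 5153 (0.862), and Tma7 489.8 in the same library against 755.9 to 805.0 (0.864). Pdgfrb at day 4 had 51.1 in KO-2 replicate 2 against 16.7 to 18.2 (0.94).

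Ppic, a peptidyl-prolyl isomerase, and Grk3, a kinase of G protein-coupled receptors, had differences of opposite sign between day 0 and day 4 in WT and KO, with no overlap between the libraries of the 2 days in either. Ppic had a difference of 0.3355 in WT and of -0.3416 in KO. Grk3 had 0.2852 in WT and -0.0918 in KO. These differences between WT and KO were not tested.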

How the results depend on the processing

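The number of genes past the thresholds, 96, was 145 with KO-1 alone as KO (81 of them shared with the 96), 94 with KO-2 alone (78 shared), 240 at a threshold of 0.3, 20 at 0.58 and 1004 with log2(normalized count + 1) in place of VST, which does not compress low counts. Quantile normalization gave 101 (84 shared) and centring on the median 75 (75 shared). Leaving out 1 library gave 91 to 105.

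limma-voom called more changes over time among the members, 22 higher and 15 lower from day 0 to day 2 in WT, 27 higher and 6 lower from day 2 to day 4 in WT, 11 higher and 24 lower from day 0 to day 2 in KO, and 32 higher and 2 lower from day 2 to day 4 in KO. Its shares of all genes were 9.5%, 10%, 12.2%, 11.9%, 7.14%, 9.2%, 5.59% and 4.75% in that order. It called 61 of the 62 changes called by limma, all but Igf2bp3 from day 2 to day 4 in WT, and reversed 0. For the clones it called 3, 4 and 16 members at day 0, 2 and 4, with 0.159%, 0.232% and 2.23% of all genes, and among the lists 12 genes lower at day 0 and 40 at day 2. With only the groups compared in the fit, 0 members differed between the clones at day 2 and 0 at day 4, and with centring 2 did at day 4. The replicate block left 0 at day 4, and it moved no other count, but the numbers do not pair the samples.

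Without 1 library, the members called in WT numbered 11 to 12 higher and 9 to 11 lower from day 0 to day 2 and 14 to 15 higher and 3 to 4 lower from day 2 to day 4. In KO they numbered 4 to 5 and 7 to 10, then 6 to 10 and 0 to 0. The clones differed in 0 to 0, 0 to 1 and 0 to 3. Of the 62 changes over time, 49 were called in every such fit. Of the 92 alternatives of counts that left out no library, 72 stayed within 1.5 times. The WT libraries of day 2 had the lowest totals, and the effect on both WT steps was not tested.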

Other observations

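The 35 members outside the named roles ranged widely in the share left in KO. Padi2, a peptidylarginine deiminase, kept 7.02%, 9.42% and 6.57% of WT over the days. Plac8, a small cysteine-rich protein first found in placenta, kept 19.3%, 5.30% and 4.57%, and Tmem30b, a flippase subunit, 11.3%, 4.27% and 13.0%. Lysosomal Ctsc, the dipeptidyl peptidase cathepsin C, went from 36.1% to 14.2% and 10.5%. At the other end stood Tma7, at 64.7%, 46.7% and 63.6%, and Armcx2, at 49.1%, 65.0% and 60.6%. All of these were picked after their values were seen, and the KO to WT values chose them as members.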
